A study of Mus musculus with 17 samples.

Results

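The Hsp70 genes examined were the inducible pair Hspa1a and Hspa1b, the cytosolic constitutive form Hspa8, the mitochondrial form Hspa9 and the Hsp110-type relative Hspa4. They were taken as every probe set whose platform gene symbol was one of the 5, which gave 9 of the 12488 probe sets on the array, and 5 of the 8252 genes named by 1 symbol. Hspa1a (93875_at), Hspa1b (100946_at), Hspa8 (96564_at) and Hspa9 (97914_at) had 1 probe set each and Hspa4 had 5 (96594_at, 92571_at, 100353_g_at, 100352_at and 161745_f_at). The rule itself uses no measured value, but the 5 genes were picked with earlier results of these data known.

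RNA came from mouse brain, from grey and white matter supplied by the middle cerebral artery, and was hybridised to 17 arrays. Each of 12 arrays carried mRNA pooled from 6 brains, with 3 arrays in each of 4 groups. Control pools came from mice given saline, and drug control pools from mice given AEOL 10150, a catalytic antioxidant, both taken 6 h after the injection. Ischemic pools had 1 h of ischemia and then 6 h of reperfusion, and treated ischemic pools had AEOL 10150 intravenously between the ischemia and the 6 h of reperfusion. The other 5 arrays each carried 1 brain with the same ischemia, drug and reperfusion, numbered 11, 12, 13, 14 and 16. The labels name no strain, sex, age or dose, no sham operation for the control groups and no vehicle for the ischemic pools, so surgery, ischemia and reperfusion cannot be told apart in these comparisons. Nor do the labels say whether the pools of a group shared mice, so the p-values measure only the spread between the arrays.

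Hsp70 proteins are ATP-driven chaperones that bind unfolded stretches of other proteins, with J-domain proteins that deliver the substrate and exchange factors that release the nucleotide. Hspa8 is abundant in unstressed neurons and also strips clathrin from vesicles, Hspa9 pulls proteins into the mitochondrial matrix, and Hspa4 acts mainly as an exchange factor for the other Hsp70s. Hspa1a and Hspa1b encode nearly the same protein, are low in unstressed brain and are switched on by heat shock factor 1, which binds inverted GAA repeats (heat shock elements) in their promoters. Their induction is a known mark of stressed but viable neurons around an infarct.

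The promoters of the inducible pair are shown because these 2 genes rose together after ischemia, with that of Hspa4 beside them. RefSeq promoter entries (build GRCm38.p6, 250 bases before the transcription start to 50 after) were matched by symbol for 3 of the 5 genes, Hspa1a, Hspa1b and Hspa4. The 250 bases before the start are printed 5' to 3' on the gene's strand, the minus strand in each case, at chr17:34972157-34972406 for Hspa1a, chr17:34959239-34959488 for Hspa1b and chr11:53300480-53300729 for Hspa4. Capitals mark a heat shock element core, GAANNTTC.
Hspa1a: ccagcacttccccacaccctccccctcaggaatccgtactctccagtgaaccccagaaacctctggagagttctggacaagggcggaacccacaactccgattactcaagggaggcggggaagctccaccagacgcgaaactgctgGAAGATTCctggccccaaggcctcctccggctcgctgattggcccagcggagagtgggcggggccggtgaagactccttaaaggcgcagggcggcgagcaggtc
Hspa1b: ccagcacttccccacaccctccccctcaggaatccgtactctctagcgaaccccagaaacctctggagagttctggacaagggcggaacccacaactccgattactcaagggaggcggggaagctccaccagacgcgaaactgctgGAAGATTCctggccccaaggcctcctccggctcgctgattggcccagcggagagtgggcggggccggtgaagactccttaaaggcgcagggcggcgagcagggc
Hspa4: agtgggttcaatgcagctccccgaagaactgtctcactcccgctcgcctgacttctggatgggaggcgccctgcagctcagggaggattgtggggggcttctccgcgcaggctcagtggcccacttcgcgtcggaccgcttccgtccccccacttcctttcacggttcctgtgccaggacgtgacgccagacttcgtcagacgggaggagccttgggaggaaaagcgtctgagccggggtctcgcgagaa
The windows of Hspa1a and Hspa1b were identical at 247 of 250 bases (98.8%), and the genes' starts lie 12918 bases apart on chromosome 17. Over the 300-base entries, searched on both strands, each of this pair held 1 match to GAANNTTC, beginning 104 bases before the start. Such a match was present in 7.86% of 32851 promoters of the same length. The opposite arrangement, TTCNNGAA (8.52% of promoters), was found in none of the 3 entries. Both members of the pair also held 1 CCAAT box (CCAAT, 37.4% of promoters), 67 bases before the start, and 3 GC boxes (GGGCGG, 35.7% of promoters), 170, 49 and 16 bases before it. No motif overlapped another. TATAAA (13.6% of promoters) was found in none of the 3 entries, and none of the other motifs was found in that of Hspa4. The matches describe the sequence and do not show which factor was bound.

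Each array was scaled so that its mean, trimmed to percentiles 2 to 98, was 2500. The values are scaled intensities without further unit and compare 1 probe set between arrays, not different probe sets with one another. Between 24.3% and 26.5% of the probe sets of an array were at or below the floor of 109.5 (6.77 on the log2 scale), which was used as the lowest measured level. Of the 9 Hsp70 probe sets, 8 were above it on all 17 arrays, and the exception was Hspa4 161745_f_at, at the floor in 1 control and 1 drug control pool. The deposited values of 10 arrays shared a scale, while those of treated ischemic pools 2 and 3 and the 5 single brains did not. By its description rather than its title, drug control pool 1 was given saline and treated ischemic pool 1 no drug. Neuron markers (6 of 6) and astrocyte markers (5 of 5) were above the floor on all arrays. Of the 6 neutrophil markers, 3 were above the floor on all 17 arrays and Ngp on none; their mean log2 level was 8.17 for control pools, 8.70 for drug control, 9.13 for ischemic, 8.90 for treated ischemic pools and 8.49 for single brains (7.81 to 9.39 over arrays). In the ischemia comparison averaged over drug arms 1 of these 6 was called. The mean of 2 red blood cell markers was 9.48, 10.09, 10.41, 10.57 and 9.54 in the same order (9.08 to 11.2 over arrays). Of these, Hba-a1, above the floor on all arrays, was 11.80, 11.50, 13.24, 12.57 and 11.43 in that order. Alas2, above the floor on 12 of the 17 arrays, was 7.15, 8.68, 7.59, 8.57 and 7.65. The 6 endothelial markers, 4 of them above the floor on all arrays, averaged 9.55, 9.51, 9.83, 9.71 and 10.07. No red blood cell or endothelial marker was called, and the part of any of these cells in the results was not tested.

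Hspa1a and Hspa1b were the 2 largest rises among 10259 probe sets tested in ischemic against control pools, and every array of ischemic brain lay above every array of brain without ischemia. In control pools 1, 2 and 3, Hspa1a measured 8219, 4225 and 2433, and in drug control pools 7645, 4081 and 3047. Its scaled intensity in ischemic pools was 90111, 78633 and 90318, and in treated ischemic pools 80944, 77849 and 78475. The lowest ischemic pool was thus 9.47 times the highest pool without ischemia. In single brains 11, 12, 13, 14 and 16, Hspa1a measured 79515, 84202, 66912, 91503 and 74059, again above all 6 pools without ischemia. After ischemia these intensities were above the 99th percentile of each array, which ranged from 38250 to 45393. They were below the brightest probe set of each array, which ranged from 135460 to 222420. Whether signal at this level was compressed was not tested.

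Hspa1b showed the same separation. It measured 5995, 1915 and 1812 in control pools 1, 2 and 3 and 5392, 1686 and 2162 in drug control pools. After ischemia it reached 73182, 56837 and 77916 in the untreated pools and 70942, 55239 and 63667 in the treated pools. The lowest of these was 9.21 times the highest pool without ischemia. The single brains gave 63159, 66868, 57195, 69899 and 56731, with no overlap with any pool without ischemia. The 6 ischemic pools lay above the other 6 for 86 of the 10259 probe sets (0.838%). Because the coding sequences of Hspa1a and Hspa1b are nearly identical, a probe set named for one may also bind transcripts of the other. How much of each rise belongs to which gene was therefore not resolved, and no probe sequences were used here. In bulk tissue, a change in the number of cells of a type and a change in RNA per cell cannot be told apart.

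**Figure D1:**
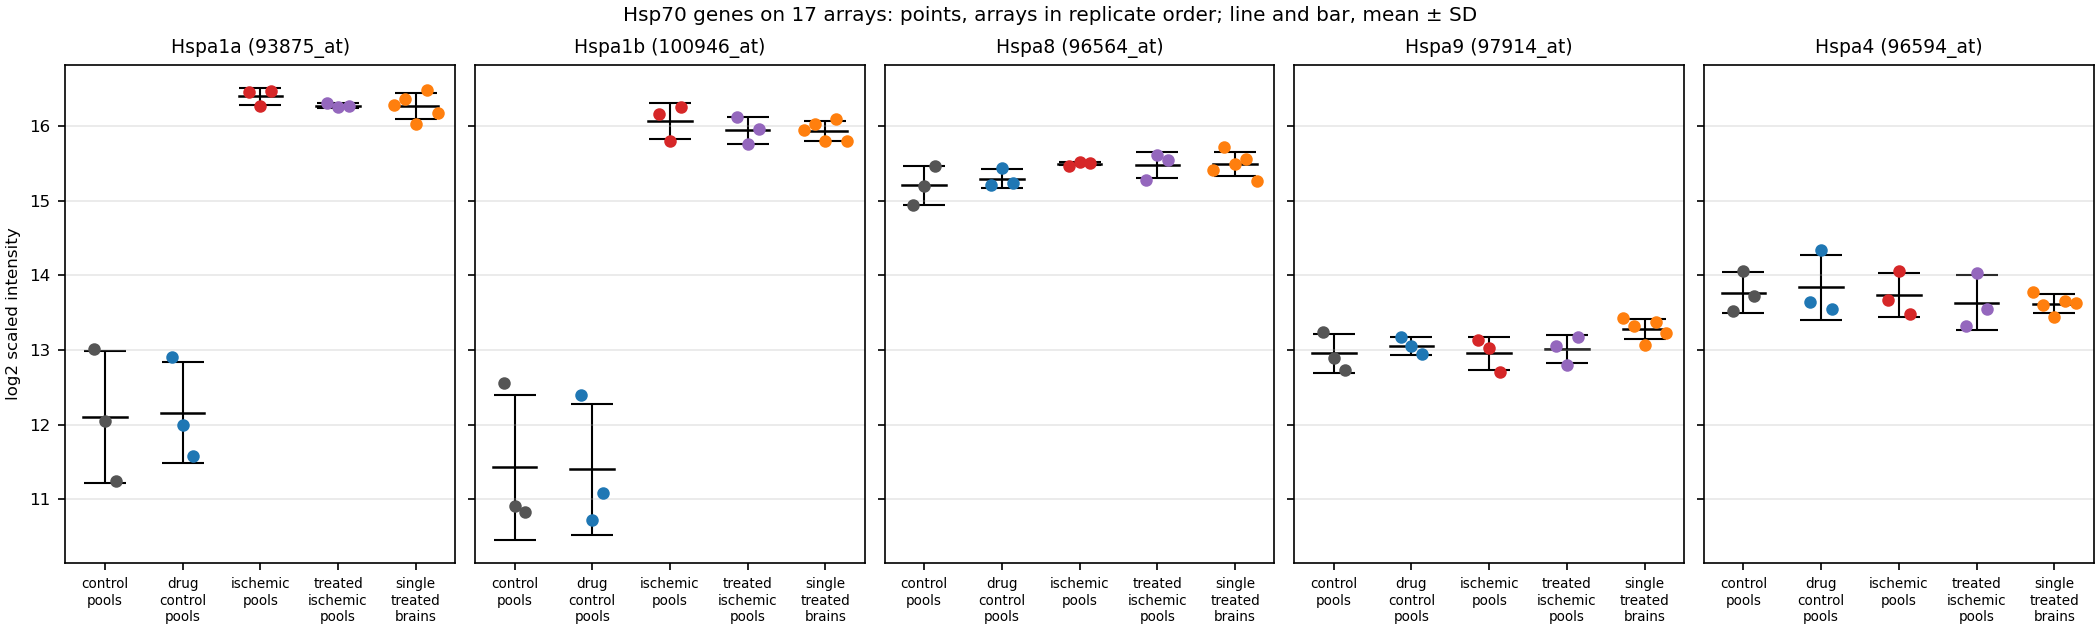
Log2 scaled intensity (vertical axis) of 5 Hsp70 probe sets, 1 panel per gene with the brightest of the 5 Hspa4 probe sets, in the 3 arrays of each pooled group and the 5 single brains. Points are arrays in replicate order, and the horizontal lines are the mean and the mean plus or minus 1 SD. Hspa1a and Hspa1b stand about 4 log2 units higher in all arrays of ischemic brain, while the groups of Hspa8, Hspa9 and Hspa4 overlap; heights of different panels are not comparable as amounts of RNA.

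Without the drug, ischemia raised Hspa1a 19.6-fold and Hspa1b 24.97-fold. On the log2 scale Hspa1a went from 12.10 ± 0.88 to 16.40 ± 0.11 (SD, n = 3 pools each), a difference of 4.30 (SE 0.43, 95% confidence interval 3.35 to 5.24, limma adjusted p = 0.00424). Hspa1b rose from 11.43 ± 0.97 to 16.07 ± 0.24, by 4.64 (SE 0.51, interval 3.52 to 5.77, limma adjusted p = 0.00612). The limma test called 22 of 10259 probe sets (0.214%) at an adjusted p under 0.05, all higher after ischemia, and 2 of the 9 Hsp70 probe sets. With ischemic pool 1 or ischemic pool 3 left out, neither gene passed. The differences were then 4.26 and 4.26 for Hspa1a (limma adjusted p = 0.0578 and 0.0583) and 4.60 and 4.55 for Hspa1b (limma adjusted p = 0.0652 and 0.0630). With only control and ischemic pools in the model, neither gene was called (limma adjusted p = 0.120 for both).

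In animals given AEOL 10150 the rises were 17.3-fold for Hspa1a and 23.3-fold for Hspa1b. The log2 difference between treated ischemic and drug control pools was 4.11 for Hspa1a (interval 3.17 to 5.06, limma adjusted p = 0.00786) and 4.54 for Hspa1b (interval 3.42 to 5.67, limma adjusted p = 0.00931). Here 9 of 10259 probe sets (0.0877%) were called, all of them higher, and 2 of the 9 Hsp70 probe sets were among them. Neither gene kept its call without drug control pool 3, nor without treated ischemic pool 1, 2 or 3, with limma adjusted p-values of 0.0580 to 0.0810 and differences of 3.82 to 4.13 for Hspa1a and 4.38 to 4.64 for Hspa1b. With only the compared groups in the model, Hspa1a was called and Hspa1b was not (limma adjusted p = 0.0744). A block for the deposited scale leaves treated ischemic pool 1 as the sole array of its group, and the differences were then 4.15 (limma adjusted p = 0.165) and 4.72 (limma adjusted p = 0.189).

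Averaged over both drug arms, which uses all 12 pools, Hspa1a was 18.4-fold higher after ischemia (log2 difference 4.21, SE 0.30, interval 3.54 to 4.88, limma adjusted p = 0.000282). Hspa1b was 24.1-fold higher (4.59, SE 0.36, interval 3.80 to 5.39, limma adjusted p = 0.000318). Both were called in each of 22 other settings, with differences of 3.99 to 4.43 for Hspa1a and 4.42 to 4.87 for Hspa1b and no limma adjusted p above 0.00653. Over the whole array 46 probe sets (0.448%) were called, 45 higher and 1 lower, against 2 of the 9 Hsp70 probe sets.

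The spread of the inducible genes lay in the pools without ischemia. The SD of Hspa1a was 0.88 log2 units in control and 0.68 in drug control pools, and 0.11 and 0.030 after ischemia without and with the drug. The median SD of the tested probe sets was 0.403, 0.355, 0.390 and 0.341 in the same groups. Replicate 1 was the highest of both groups without ischemia for Hspa1a and Hspa1b, and these numbers pair control, drug control and ischemic pools (their deviations correlated within a number). Taken within a number, ischemic over control was 11.0-fold, 18.6-fold and 37.1-fold for Hspa1a in numbers 1, 2 and 3, and 12.2-fold, 29.7-fold and 43.0-fold for Hspa1b. The fold was smallest where the control pool was highest, while Hspa1a in ischemic pools stayed between 78633 and 90318. Whether compression of high signals had a part in the small SDs after ischemia was not tested. On the actin control probe sets the ratio of 3' to 5' signal, which rises as RNA is degraded, was 1.65, 1.33 and 1.19 in control pools. The same ratio was 1.97, 2.14 and 1.15 in drug control, 1.70, 1.53 and 1.17 in ischemic and 1.68, 1.29 and 1.34 in treated ischemic pools. Its part in the spread of the inducible genes was not tested.

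No effect of AEOL 10150 on either inducible gene was resolved by these arrays. Treated minus untreated ischemic pools differed by -0.12 for Hspa1a (SE 0.43, interval -1.07 to 0.82) and -0.13 for Hspa1b (SE 0.51, interval -1.25 to 1.00), each with a limma adjusted p of 1. A change of up to about 1 log2 unit in either direction was inside these intervals. Their width comes from all 4 groups fitted together, and the spread of these genes lay mainly in the pools without ischemia. In ischemic and treated ischemic pools the SDs were 0.11 and 0.030 for Hspa1a and 0.24 and 0.18 for Hspa1b. Without ischemia the drug control pools differed from control pools by 0.057 for Hspa1a (interval -0.89 to 1.00) and -0.027 for Hspa1b (interval -1.15 to 1.10). These intervals do not use the pairing by replicate number. Within numbers 1, 2 and 3, drug control minus control was -0.10, -0.050 and 0.32 for Hspa1a and -0.15, -0.18 and 0.25 for Hspa1b. The difference between both ischemia responses was -0.18 for Hspa1a (SE 0.60, interval -1.52 to 1.16) and -0.098 for Hspa1b (SE 0.72, interval -1.69 to 1.49). None of the 9 Hsp70 probe sets was called in these 3 comparisons. Over the array, 0.00975% of probe sets (1 of 10259) were called for the drug after ischemia, 0.00975% (1) for the drug without ischemia and 0% (0) for the difference of responses, where 213 had an unadjusted p under 0.05 by limma.

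In the single brains, all given AEOL 10150, the rise over drug control pools was 4.11 log2 units for Hspa1a (SE 0.28, limma adjusted p = 0.000564) and 4.53 for Hspa1b (SE 0.34, limma adjusted p = 0.000656). The treated ischemic pools were set against the same drug control pools, so both comparisons share 3 arrays. Both calls held in 15 of 15 other settings. Of 9907 probe sets tested, 645 (6.51%) were called, 288 higher and 357 lower, and 2 of the 9 Hsp70 probe sets were called, both higher. The balance over the array turned with the scaling, to 366 higher of 624 with median scaling and 311 higher of 565 after quantile normalization. It also rested on single arrays, with 234 called without drug control pool 3, 983 without drug control pool 2, 940 without drug control pool 1 and 264 to 328 without any 1 of the single brains. All single brains have a deposited scale unlike that of the drug control pools, so scale, pooling and group cannot be told apart in this comparison.

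Brain to brain, the inducible genes varied less than the median probe set. Hspa1a ranged over the 5 brains from 66912 in brain 13 to 91503 in brain 14, with an SD of 0.17 log2 units, and Hspa1b had an SD of 0.13. The median SD of tested probe sets among single brains was 0.231, and 36.5% and 25.1% of them had a smaller SD than Hspa1a and Hspa1b. The 7 constitutive probe sets had SDs from 0.12 (Hspa4 96594_at) to 0.59 (Hspa4 161745_f_at), with 0.17 for Hspa8 and 0.14 for Hspa9. Against the untreated ischemic pools the single brains differed by -0.13 for Hspa1a (SE 0.15, interval -0.47 to 0.21) and -0.13 for Hspa1b (SE 0.16). None of the 9 Hsp70 probe sets passed in that comparison, in which 182 of 9889 probe sets (1.84%) were called. That count was 449 without ischemic pool 1, 279 without ischemic pool 3 and 48 to 60 without any 1 of the single brains. In order of mean log2 level, Hspa1a ran from control (12.10) through drug control (12.16), single brains (16.27) and treated ischemic pools (16.27) to ischemic pools (16.40). The step from drug control pools to single brains was far larger than the spread within groups. The step from treated ischemic (SD 0.030) to ischemic pools (SD 0.11) was several times the first SD and slightly larger than the second. It did not pass the test, whose SE rests on all 4 groups of pools. The other steps were smaller than the spread. For Hspa1b the groups lay at 11.40 in drug control, 11.43 in control, 15.93 in single brains, 15.94 in treated ischemic and 16.07 in ischemic pools, where the step between groups without and with ischemia was the one larger than the spread.

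The constitutive cytosolic form, Hspa8, was slightly higher after ischemia, by an amount that did not pass the test. It measured 31453, 37578 and 45338 in control pools 1, 2 and 3 and 37771, 44496 and 38459 in drug control pools. In ischemic pools it measured 45365, 46669 and 46320, and in treated ischemic pools 39617, 49918 and 47620. Treated ischemic pool 1 lay inside the range of the 6 pools without ischemia, and ischemic pool 1 cleared the highest control by a narrow margin. The single brains 11, 12, 13, 14 and 16 gave 43603, 53663, 46018, 48265 and 39457, with brains 11 and 16 below the highest control pool. Averaged over both drug arms the log2 difference was 0.24 (SE 0.13, interval -0.057 to 0.53, 1.18-fold, limma adjusted p = 1.00). An increase as large as 0.53 log2 units and no increase were both inside the interval. Within a replicate number, ischemic over control was 1.44-fold, 1.24-fold and 1.02-fold, with control pool 1 the lowest of all pools.

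Hspa9, which resides in mitochondria, showed no difference between pools that the arrays resolved. Its scaled intensities were 9700, 7622 and 6789 for control, 9238, 8455 and 7855 for drug control, 9016, 8301 and 6653 for ischemic and 8456, 7139 and 9239 for treated ischemic pools. The 4 groups overlapped throughout, and the ischemia difference averaged over drug arms was -0.025 (SE 0.14, interval -0.34 to 0.29). In single brains 11, 12, 13, 14 and 16, Hspa9 measured 10980, 10207, 8593, 10565 and 9548, with brains 13 and 16 below the highest control pool. The difference from ischemic pools, 0.33 log2 units (SE 0.15, interval -0.026 to 0.68, limma adjusted p = 0.242), did not pass, and drug, pooling and deposited scale differ together in it.

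The 5 Hspa4 probe sets did not point one way. The brightest, 96594_at, measured 11790, 17061 and 13457 in control and 13011, 17014 and 11418 in ischemic pools. With the drug it measured 12747, 20675 and 11943 in control and 10222, 16733 and 12012 in ischemic pools. Replicate 2 was highest in each of the 4 groups, and the ischemia difference averaged over drug arms was -0.12 (SE 0.20, interval -0.57 to 0.33). Single brains gave 14054, 12446, 11115, 12847 and 12711, inside the range of the control pools except for brain 13.

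Hspa4 92571_at stayed in a narrow range, from 1678 in drug control pool 2 to 2604 in ischemic pool 2, with an averaged ischemia difference of 0.022 (SE 0.15, interval -0.31 to 0.35). Over all 5 probe sets the averaged ischemia differences ran from -0.25 to 0.33, 3 of them above 0 and 2 below. Without the drug they ran from -0.20 to 0.54 and with it from -0.64 to 0.66, and each of the 7 constitutive probe sets had a limma adjusted p of 1 in both comparisons. The lowest value, -0.64 for 100353_g_at, came with treated ischemic pool 1 at 178, where treated ischemic pools 2 and 3 measured 1222 and 1453.

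Probe set 100352_at of Hspa4 was the only one of the 7 constitutive probe sets with an unadjusted p under 0.05 among the pools. This was for the drug without ischemia, where 264 of 10259 probe sets had an unadjusted p under 0.05 by limma. Probe set 100352_at measured 611, 866 and 824 in control pools and 428, 277 and 455 in drug control pools. Ischemic pools gave 573, 587 and 847, treated ischemic pools 323, 657 and 1005, and the single brains 1065, 1053, 750, 957 and 527. Without ischemia the drug control pools stood at 0.498 times the control pools (SE 0.39 on the log2 scale, log2 interval -1.87 to -0.14), with a limma adjusted p of 1. Single brains exceeded drug control pools by 1.16 log2 units (SE 0.28, limma adjusted p = 0.0501), which missed the threshold. It passed without single brain 16 (1.33, limma adjusted p = 0.0334) and in 4 other settings (limma adjusted p = 0.0327 to 0.0485). The 4 other Hspa4 probe sets differed from drug control pools by -0.24 to 0.59 in the same comparison, none past the threshold.

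**Figure D2:**
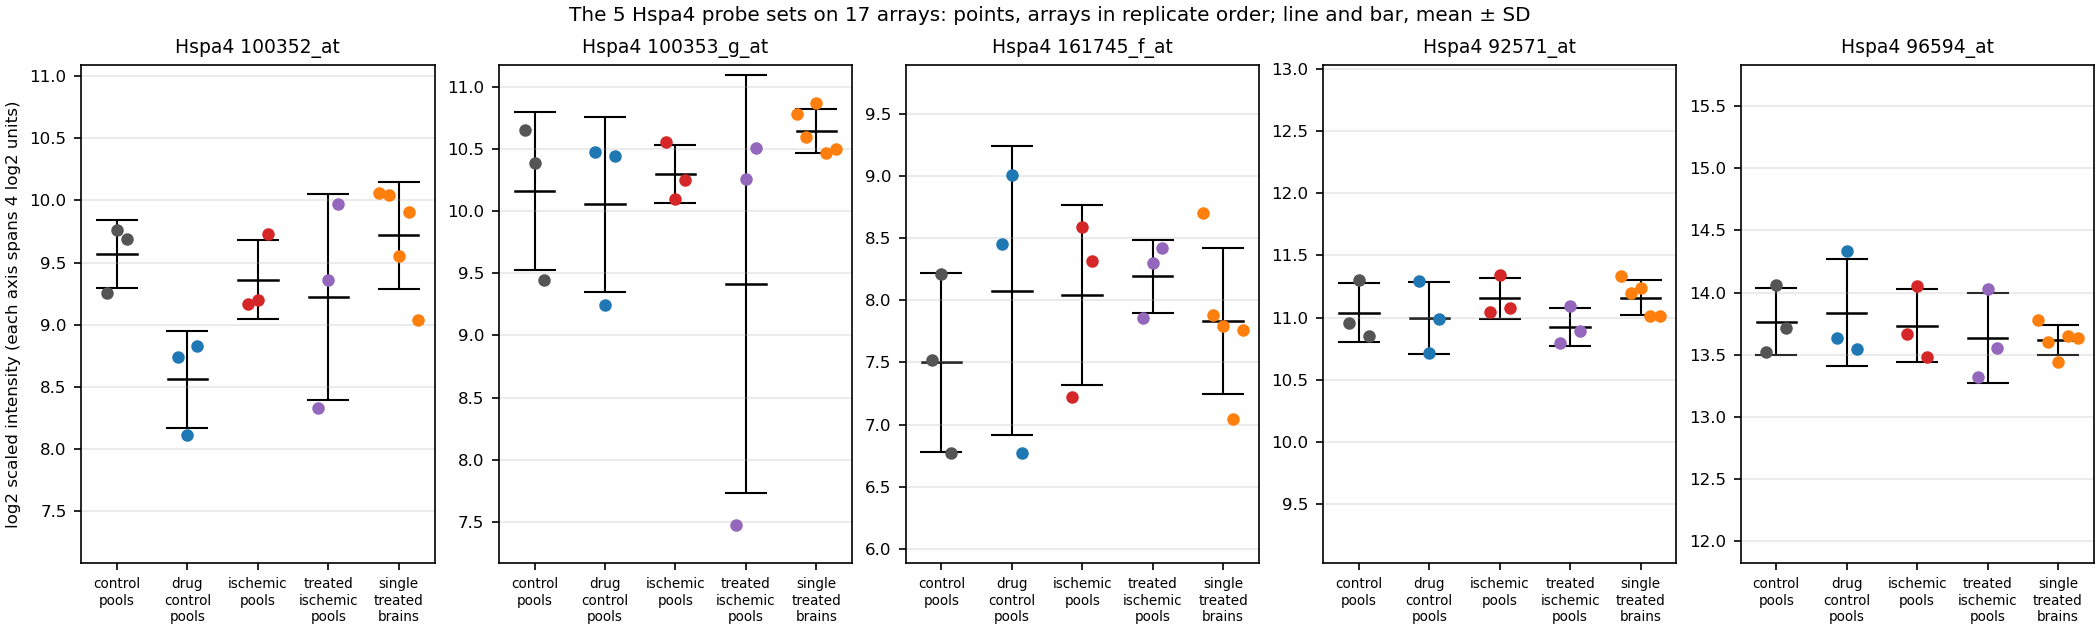
Log2 scaled intensity of the 5 Hspa4 probe sets in the 5 groups, 1 panel per probe set, with each vertical axis spanning 4 log2 units. Points are arrays in replicate order, and lines mark the mean and the mean plus or minus 1 SD. Treated ischemic pool 1 lies far below its group on 100353_g_at, and on 100352_at the mean is 8.56 in drug control pools and 9.57 in control pools.

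**Figure D3:**
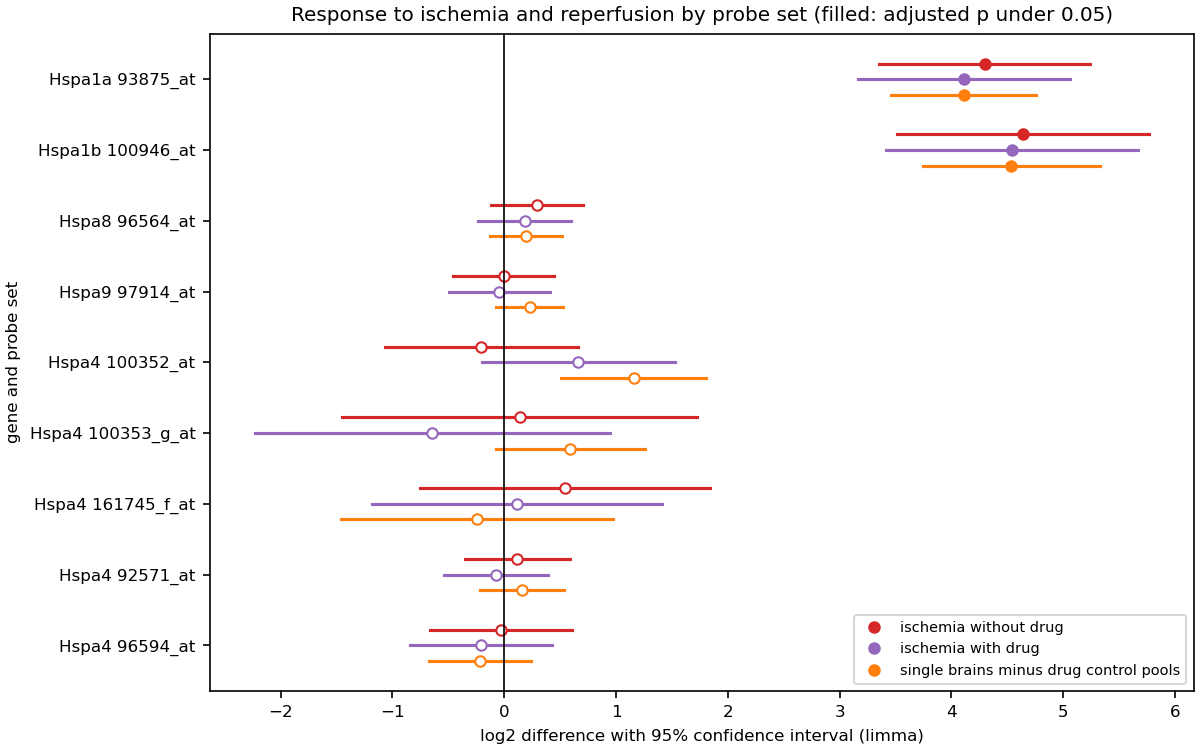
Log2 difference with its 95% confidence interval (horizontal axis, limma) of each of the 9 Hsp70 probe sets (vertical axis) for ischemia in each drug arm and for single brains minus drug control pools. Filled points have an adjusted p under 0.05. Hspa1a and Hspa1b lie between 4.11 and 4.64, and the intervals of Hspa8, Hspa9 and 4 of the 5 Hspa4 probe sets include 0 in all 3 comparisons, with 100352_at of Hspa4 the exception in single brains.

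Set side by side on each array, the response of the inducible genes exceeded that of the constitutive genes in every array of ischemic brain. For each array the mean difference from the matching control pools (drug control pools where the drug was given) was taken over Hspa1a and Hspa1b and over Hspa8, Hspa9 and Hspa4, the 5 Hspa4 probe sets being averaged first. The inducible mean was 4.47 log2 units in ischemic pools, 4.33 in treated ischemic pools and 4.32 in single brains. The constitutive mean was 0.13, 0.035 and 0.24 in the same groups. The gap between them was 4.34 ± 0.25 in ischemic pools (SD, n = 3, range 4.06 to 4.53), 4.29 ± 0.34 in treated ischemic pools (n = 3, 4.09 to 4.69) and 4.08 ± 0.13 in single brains (n = 5, 3.96 to 4.28). Arrays of a group share 1 control mean, so these SDs leave out the spread of the control pools themselves. For the same measure the SD was 0.89 in control and 0.69 in drug control pools. No test was made of the gap, since the genes were chosen with their responses known.

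**Figure D4:**
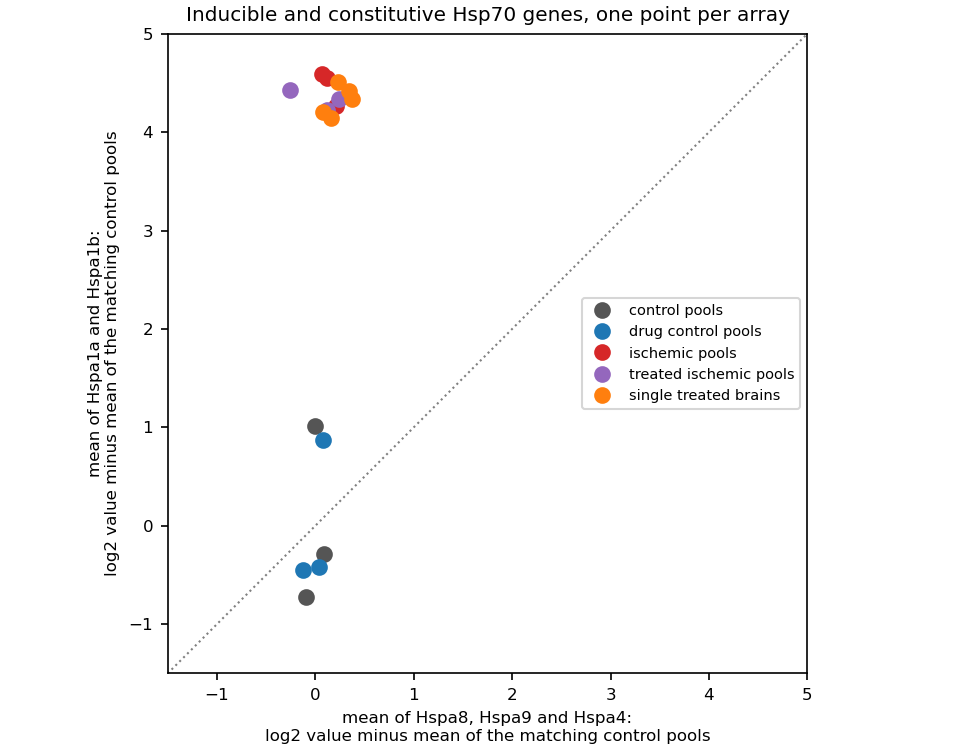
Each point is 1 of the 17 arrays, with the mean log2 response of Hspa8, Hspa9 and Hspa4 on the horizontal axis and that of Hspa1a and Hspa1b on the vertical axis, both relative to the matching control pools. The dotted line marks equal responses. All 11 arrays of ischemic brain lie above 4 on the vertical axis and within 0.5 of 0 on the horizontal axis.

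Within the inducible pair, the log2 difference of Hspa1b from Hspa1a on the same array was -0.46, -1.14 and -0.43 in control pools 1, 2 and 3 and -0.50, -1.27 and -0.49 in drug control pools. It ranged from -0.47 to -0.21 in ischemic pools, from -0.49 to -0.19 in treated ischemic pools and from -0.39 to -0.23 in single brains. Only pool 2 of each group without ischemia stood apart, and the other 4 pools lay within or close to the range after ischemia. The 2 probe sets may bind with unlike strength, so the difference does not show which transcript was more abundant.

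The genes most like each Hsp70 gene over the 12 pools were found by Pearson's r of log2 values among 6692 probe sets of other genes (6689 for Hspa4) that were above the floor on all 12 arrays. For Hspa1a they were Hspa1b, the activity-induced transcription factor Fos, Hsph1, an Hsp110-type exchange factor, Dnajb1, an inducible J-domain partner, and Bag3, an exchange factor that links Hsp70 to autophagy, with r of 0.982 to 0.994. The pools fall into 2 clusters by ischemia, so r over all 12 mainly repeats that split. Within the 6 ischemic pools r with Hspa1a was 0.856 for Hspa1b, 0.302 for Fos, -0.543 for Hsph1, 0.561 for Dnajb1 and 0.085 for Bag3. Within the 6 other pools it was 0.888, 0.992, 0.843, 0.857 and 0.755. For all 5, r was lower within the ischemic pools than within the pools without ischemia, where arrays of a replicate number deviated together. For Hspa1b the 5 were Hspa1a, Dnajb1, Fos, the immediate early gene Ier2 and the lipopolysaccharide co-receptor Cd14. Within the 6 ischemic pools, Dnajb1 (0.815) and Ier2 (0.932) followed Hspa1b, while Fos (-0.201) and Cd14 (-0.339) did not.

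None of the nearest genes of the constitutive forms was another Hsp70 gene. For Hspa8 they were Fth1, the ferritin heavy chain (r = 0.877), Emcn, Arpc5, Rgs16 and Abcg2 (0.847). For Hspa9 they were B4galnt1, a ganglioside synthase (0.952), Reps1, Gatad2a, Tlk2 and Pafah1b2 (0.921). For Hspa4 (96594_at) they were Zbtb16 (0.951), Ank3, Pvalb, a calcium-binding protein of fast-spiking interneurons, Tnpo3 and Itpr2 (0.937). These r values rest on 12 arrays that share replicate structure and scaling, and they are given as a description.

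The partners of Hsp70 were taken from a list of 52 genes, of which 37 were tested. In ischemia without the drug 2 of the 37 rose and none fell, with the drug 2 rose and none fell, and averaged over both arms 3 rose and none fell. Over all probe sets tested, 0.214%, 0.0877% and 0.448% were called in these comparisons. The median log2 difference of the 37 was 0.18, 0.19 and 0.089, beside 0.031, -0.023 and 0.014 over all probe sets tested. Of the 12 J-domain partners, Dnajb1 alone rose, by 2.20 without the drug (SE 0.28, limma adjusted p = 0.0149), 1.95 with it (SE 0.28, limma adjusted p = 0.0385) and 2.08 on average (SE 0.20, limma adjusted p = 0.00106). Among the other 11 the averaged differences ran from -0.21 for Dnajc5 to 0.98 for Dnajb4 (SE 0.55).

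Of the 10 tested exchange, adaptor and quality control partners, Bag3 rose, by 1.88 without the drug (SE 0.24, limma adjusted p = 0.0155), 1.71 with it (SE 0.24, limma adjusted p = 0.0385) and 1.79 on average (SE 0.17, limma adjusted p = 0.00106). Of 6 other Hsp70-family genes tested, Hsph1 passed only in the averaged comparison (0.90, SE 0.11, limma adjusted p = 0.00554). Its differences in the separate arms were 0.91 (limma adjusted p = 0.0555) and 0.88 (limma adjusted p = 0.132). The endoplasmic reticulum form Hspa5 differed by 0.57 (SE 0.14, limma adjusted p = 0.235) and did not pass. Hspa1l, which neighbours the inducible pair and is known mainly from testis, differed by 0.98 with a standard error of 0.78.

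None of the 4 tested Hsp90 and mitochondrial chaperones, the 3 tested small heat shock proteins or the 2 genes tested from the heat shock factor list passed in any of these comparisons. The 2 from the factor list were Hsf4 and Hsbp1. Hsf1 and Hsp90ab1 matched no probe set with 1 symbol. Hsf2 and Hspb1 had probe sets that exceeded the floor on too few pools to be tested. Averaged differences of the mitochondrial chaperonins were 0.54 for Hspd1 (SE 0.11, limma adjusted p = 0.0852) and 0.74 for Hspe1 (SE 0.22, limma adjusted p = 0.451). The cytosolic Hsp90aa1 differed by 0.33 (SE 0.12), and the small heat shock proteins Hspb8 and Cryab by 0.37 (SE 0.15) and 0.52 (SE 0.25). The averaged log2 differences of Dnajb1, Bag3 and Hsph1, the 3 that rose, were 2.08, 1.79 and 0.90, beside 4.21 for Hspa1a and 4.59 for Hspa1b.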

How the data were processed

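The deposited values were intensities, 1 per probe set and array, not log-transformed, and between 15.2% and 19.3% of an array's values were below 0. What software and scaling the authors used is not given in the sources used here. Each of the 17 arrays was multiplied so that its mean, trimmed to percentiles 2 to 98, was 2500. The 25th percentile over the 12 pools after scaling (109.5) served as a floor before log2 was taken. No 2 arrays held identical values. Arrays have no read depth, and their number limits the precision.

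Groups came from the titles, and from the descriptions for single brains. limma 3.58.1 (R 4.3.3) was used for linear models of all probe sets that exceeded the floor on 3 or more arrays in a model, 66 array controls left out. The 12 pools were fitted together (8 residual and 2.23 prior degrees of freedom), and single brains separately with the drug control or the ischemic pools. P-values are two-sided and adjusted over all tested probe sets by Benjamini-Hochberg, with a threshold of 0.05. The procedure was tested on simulated data with independent noise on each array. Such data do not cover pools that deviate together by replicate number. Of the probe sets, 10855 had 1 platform symbol, 396 several and 1237 none.

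All 9 Hsp70 probe sets are named, with the 5 most correlated probe sets of other genes for the brightest probe set of each gene and the pathway genes past the threshold. Further pathway genes were named after their values were seen. The genes and lists were chosen with earlier results of these data known. Same-numbered pools deviated together among control, drug control and ischemic pools (r over probe sets 0.332 to 0.571). With treated ischemic pools r ran from -0.335 to 0.401. For number 2 it was 0.401 with drug control, 0.382 with ischemic and 0.189 with control pools. It was 0.059 to 0.213 for number 1 and negative for number 3. The numbers were therefore taken to pair the first 3 groups only, and no label explains them. Alternatives changed the floor, scaling, filter, variance model, groups, blocks and arrays included.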

Additional observations from a re-analysis of the deposited data

How the results depend on the processing

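Averaged over both drug arms, Hspa1a and Hspa1b were called in all 22 alternatives, and in single brains against drug control pools in all 15. The separate arms rest on few arrays. With only the compared groups in the model, the number of Hsp70 probe sets called fell from 2 to 0 for ischemia without the drug and to 1 for ischemia with it, and it was 0 with the drug when the deposited scale was a block. When 1 pool was left out, the number ranged from 0 to 2 in either arm: 0 without ischemic pool 1 or 3, or without drug control pool 3 or any treated ischemic pool, and 2 otherwise. Fewer arrays enter the models of only the compared groups and those with 1 pool left out, and other causes were not tested. The scale block keeps all pools, but leaves treated ischemic pool 1 as the only array that sets the mean of its group. The gap between inducible and constitutive responses in single brains was 4.25 with the brightest probe set of each gene, 4.03 after quantile normalization and 4.08 as reported.

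With the replicate block, 2 Hsp70 probe sets were called in ischemia without the drug, with the drug and averaged, and 0 in the drug comparisons; the block changed no other call (Hspa1a without the drug, SE 0.34, limma adjusted p = 0.00403). Over the array it called 35, 12 and 65 probe sets in place of 22, 9 and 46. Grouped by description, or with the 2 arrays of differing labels left out, both genes stayed called in each ischemia comparison. Counts over the array were not stable. For ischemia without the drug the 22 became 33 with the floor at the 40th percentile, 13 after quantile normalization, 11 without the 2 arrays of differing labels, 0 with only the compared groups, 1 without ischemic pool 1 or 3, 5 without ischemic pool 2, and 9 and 7 without control pool 1 and 2. With the drug they ran from 1 to 16 and averaged over arms from 19 to 65. Of 979 constitutive values under alternatives, 96 changed sign without being called in either setting and 5 passed the threshold, all of Hspa4 100352_at in single brains. No called value changed sign. The alternatives that leave out drug control arrays were not run for single brains against ischemic pools, which do not use them, and the model of only the compared groups does not apply to the averaged comparison or the difference of responses. Precision is limited by 3 pools a group.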
